A study of Mus musculus with 4 samples.

Results

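The transcripts of the TRAF adaptors (Traf1 to Traf7), the cIAP ubiquitin ligases (Birc2 and Birc3) and the kinase NIK (Map3k14) were examined in mouse primary myotubes treated with EDA-A2. These 10 genes were taken by symbol from the 53647 genes of the count tables, through the Ensembl identifiers of GENCODE release M39. All 10 were among the 15173 genes that passed the filter on low counts, Traf1 and Birc3 through their EDA-A2 libraries alone. Primary myotubes are multinucleated muscle cells that form in culture when myoblasts fuse, and these myoblasts were WT and came from the limb muscles of pups 2 to 3 days old. Myotubes of the EDA-A2 group received the recombinant ligand at 250 ng/ml for 24 h, whereas the other group is labelled only as control, and its vehicle is not stated. In both groups the cells were harvested 72 h after differentiation, and each group comprised 2 stranded libraries of polyadenylated RNA. The labels give neither the strain nor the number of the pups, and no source used here ties the libraries of a group to separate cultures, so the p-values measure only the spread between these libraries, which may be technical.

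EDA-A2 is an isoform of ectodysplasin A, a ligand of the tumour necrosis factor (TNF) family, and binds the receptor EDA2R. Receptors of this family have no enzymatic activity of their own, and their cytoplasmic tails recruit TRAF adaptors, which pass the signal to NFκB and stress kinases. In resting cells, a complex of TRAF2, TRAF3 and the cIAPs ubiquitinates NIK and keeps its protein level low. When a receptor engages this complex, NIK accumulates, and the NFκB precursor p100 is processed to p52, the noncanonical branch of NFκB signalling. In skeletal muscle, TRAF signalling is known from studies of atrophy and of muscle stem cells. RNA counts measure transcripts, and the protein steps of this pathway were not measured here.

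Counts on genes summed to between 29444155 and 29746863 per library, and a count of 0 allows up to 3 counts, or 0.101 to 0.102 CPM (counts scaled to library size). All 8 myotube markers were expressed. Their summed level was 19935 and 18758 CPM in the control libraries and 14308 and 14603 CPM after EDA-A2, with 1 marker called higher and 2 called lower. Mymx was higher (log2 fold change 1.22), and the abundant Acta1 (-0.52) and Myh3 (-0.57) were lower. Myog, Mymk, Ckm, Ttn and Des were not called, so the sum does not describe every marker. The summed level of the 4 myoblast markers was 300 and 257 CPM in control and 240 and 229 CPM after EDA-A2, with 1 called lower. The 5 fibroblast markers summed to 1675 and 1741 CPM in control and 1598 and 1621 CPM after EDA-A2, and the 4 markers of dividing cells summed to between 655 and 779 CPM in the 4 libraries, with no gene of these 2 lists called. Col3a1 held most of the fibroblast counts, and Lum had 0 in every library. The log2 fold changes of the 4 tested were -0.46 (Col1a1), -0.04 (Col3a1), 0.16 (Pdgfra) and 0.48 (Dcn), so the fibroblast sum does not describe every marker. All 4 T cell markers and all 3 B cell markers had at most 3 counts in every library. The 4 endothelial markers summed to 0.996 to 1.23 CPM. In bulk RNA, fewer cells of a type and less RNA per cell cannot be told apart.

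After EDA-A2, 5 of the 10 transcripts were upregulated: Birc3 by 16.4-fold, Traf1 by 7.18-fold, Traf3 by 2.28-fold, Map3k14 by 2.17-fold and Traf2 by 1.81-fold. Traf4, Traf5, Traf6, Traf7 and Birc2 did not pass the test, and none of the 10 was called lower. The calls are at an adjusted p under 0.05 in edgeR's quasi-likelihood test over all 15173 genes. Of all genes tested, 4.57% were called, 2.45% as higher and 2.13% as lower. The members were chosen with earlier results of these data known, so this comparison is a description only. DESeq2 called the same 5 members, and 3.72% of all genes, 1.94% as higher. It gave 1471 of the 15173 genes no adjusted p, and these shares count them as not called. Among the 8 members that passed the filter in both groups, 3 were called. The median log2 fold change was 0.23 over these 8 genes, 0.55 over all 10 and -0.002 over all genes tested. In normalised counts, both EDA-A2 libraries lay above both control libraries for 8 of the 10 genes, an arrangement found for 22.8% of all genes tested. Traf1 and Birc3 are among the 8, and passing the filter through the EDA-A2 libraries alone favours this arrangement. The edgeR calls depended on both control libraries. With either of them left out, edgeR called 0 of all genes, although 2179 and 2448 genes had an unadjusted p under 0.05. DESeq2 then called 326 genes without control replicate 1 and 509 without control replicate 2, among them 4 and 6 of the members.

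**Figure D1:**
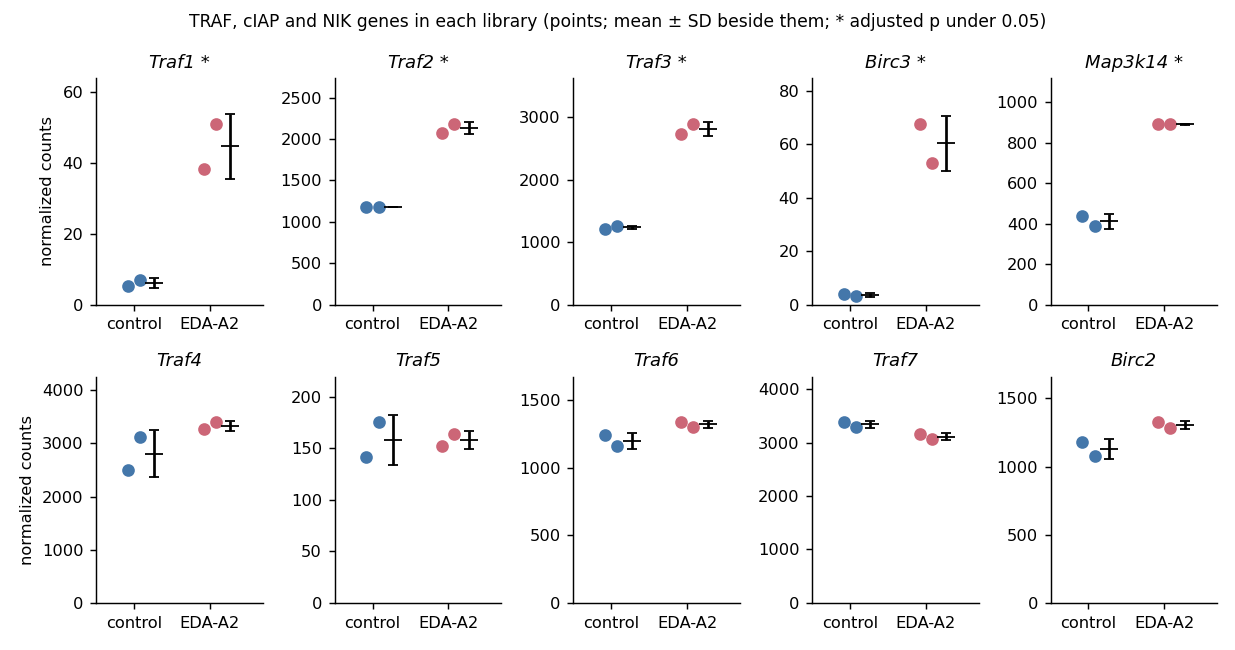
Normalised counts (y axis, each panel from 0) of the 10 genes in the 2 control (blue) and 2 EDA-A2 (red) libraries, 1 point per library, with the mean ± SD of each group beside the points. The asterisk marks an edgeR adjusted p under 0.05 (Traf1, Traf2, Traf3, Birc3 and Map3k14). The separation of the groups in these panels therefore follows from how they were marked. Traf1 and Birc3 passed the filter on low counts through their EDA-A2 libraries alone.

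**Figure D2:**
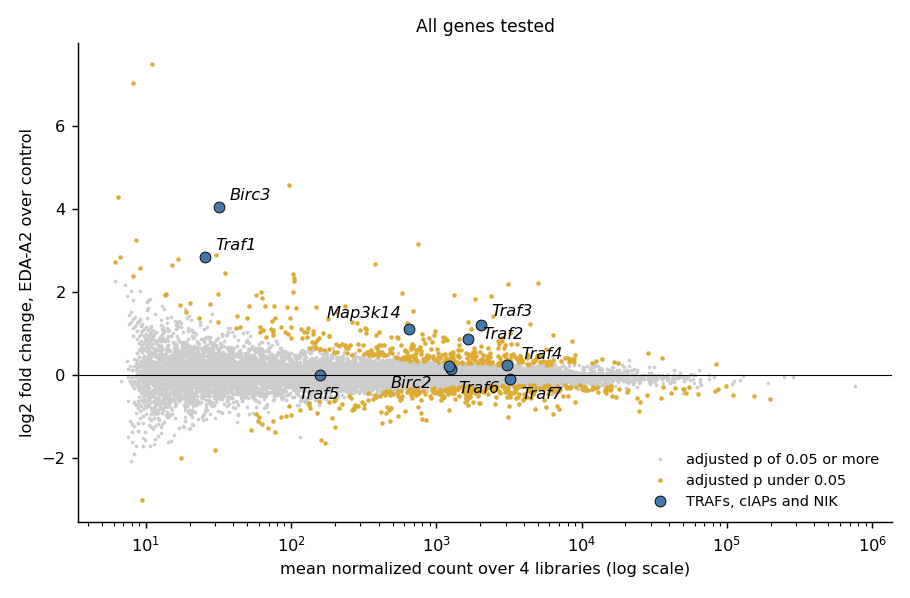
Log2 fold change (y axis) against the mean normalised count over the 4 libraries (x axis, log scale) for the 15173 genes tested, with the 10 members in blue. Birc3 and Traf1 lie at the top among genes of low count, and Map3k14, Traf3 and Traf2 lie above most genes of similar count. Birc3 and Traf1 passed the filter on low counts through their EDA-A2 libraries alone, which favours a high position.

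The transcripts of the adaptors that form the complex on NIK, TRAF2 and TRAF3, were both upregulated. Traf3 (ENSMUSG00000021277, GRCm39 chr12:111132776-111233589, plus strand) encodes the adaptor that links NIK to the ubiquitin ligases of the complex. Its normalised counts were 1211 and 1255 in control and 2730 and 2894 after EDA-A2. The mean thus went from 1233 ± 31.7 to 2812 ± 116 (SD, n = 2 libraries each), and no library of one group reached the other. This was a log2 fold change of 1.19 (SE 0.07, 95% interval 1.03 to 1.35, edgeR adjusted p = 1.47e-07), at rank 106 among all genes ordered from the largest rise. Traf2 (ENSMUSG00000026942, chr2:25406097-25436987, minus strand) encodes the adaptor that brings the cIAPs into the complex. Traf2 had 1178 and 1178 normalised counts in control and 2077 and 2185 after EDA-A2. The control libraries were nearly identical, and the means of 1178 ± 0.114 and 2131 ± 76.1 (SD, n = 2) differed by more than any within-group gap. Its log2 fold change was 0.86 (SE 0.07, interval 0.70 to 1.01, edgeR adjusted p = 6.69e-06). The intervals of Traf2 and Traf3 did not overlap, but the difference between them was not tested. With 1 library left out, the log2 fold changes of Traf3 lay between 1.15 and 1.23 and those of Traf2 between 0.82 and 0.89. The edgeR adjusted p without control replicate 1 or 2 was 0.208 or 0.157 for Traf3 and 0.256 or 0.181 for Traf2.

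Among the promoters of the 10 genes, that of Traf3 held the only κB match. The consensus site of NFκB, of 10 bases, was searched on both strands in windows from 250 bases before to 50 bases after the start of the canonical transcript. No other motif was searched. The match lies 19 to 28 bases after the Traf3 start in GENCODE, and in the RefSeq table (GRCm38.p6), whose Traf3 start lies further downstream, it lies at bases -10 to -1. Of the windows of 13065 protein-coding genes tested, 1307 (10%) held a match, and 1 of the 10 members did. In the RefSeq table, in which all 10 genes were matched, 2779 of 32851 windows (8.46%) held one. A match describes these letters and is not a measured binding site. The capitals mark the match in the 30 bases at chr12:111132784-111132813, plus strand, 5′ to 3′.
Traf3: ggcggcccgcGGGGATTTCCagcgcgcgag

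The kinase of the complex, NIK, was upregulated at the transcript level as well. Map3k14 (ENSMUSG00000020941, chr11:103110577-103158298, minus strand) encodes NIK, the kinase that activates IKKα in the noncanonical branch. Map3k14 had 438 and 386 normalised counts in control and 894 and 890 after EDA-A2. Both treated libraries lay above both controls, and the means were 412 ± 36.5 and 892 ± 2.50 (SD, n = 2). The estimate was a log2 fold change of 1.11 (SE 0.10, interval 0.91 to 1.32, edgeR adjusted p = 7.39e-06). With 1 library left out it lay between 1.03 and 1.21, and the edgeR adjusted p was 0.208 without control replicate 1 and 0.157 without control replicate 2. Exons of the antisense lncRNA Gm34823 overlap those of Map3k14 over 462 bases, and the same-strand lncRNA 1700028N14Rik, which overlaps 135 bases, had 2 counts in all. The strand option of the counting is not given in the sources used here, so reads of Map3k14 and of its antisense partner cannot be told apart.

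The largest rise among the 10 genes was that of Birc3, which encodes cIAP2, a ubiquitin ligase recruited by TRAF2 that restrains cell death. Birc3 (ENSMUSG00000032000, chr9:7845790-7873229, minus strand) had 4 and 3 raw counts in control and 69 and 54 after EDA-A2. In normalised counts these were 4.12 and 3.03 against 67.6 and 53.1, with means of 3.57 ± 0.775 and 60.4 ± 10.3 (SD, n = 2). Birc3 was thus close to the limit of detection in control myotubes and was counted in both treated libraries. At a log2 fold change of 4.03 (SE 0.43, interval 3.11 to 4.96, edgeR adjusted p = 5.29e-05), Birc3 had rank 5 among all genes ordered from the largest rise. Birc3 passed the filter on low counts through its EDA-A2 libraries alone, which favours a high rank. Since 7 counts stand behind the control value, the ratio of counts of 123 to 7, scaled for depth, was 16.9 with an exact 95% Clopper-Pearson interval of 7.97 to 43.0, which covers counting error only. Without control replicate 1 or 2 the edgeR adjusted p was 0.256 or 0.185, and the log2 fold changes with 1 library left out ran from 3.83 to 4.27.

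Birc2, the gene next to it, did not pass the test. Birc2 (ENSMUSG00000057367, chr9:7818227-7837120, minus strand) encodes cIAP1, which acts in the same complex, and 8670 bases separate it from Birc3 on the same strand. Birc2 had 1181 and 1079 normalised counts in control and 1326 and 1285 after EDA-A2. Both treated libraries were above the controls, with means of 1130 ± 71.9 and 1306 ± 28.8 (SD, n = 2). Its log2 fold change was 0.21 (SE 0.08, interval 0.04 to 0.38, edgeR adjusted p = 0.197), with an upper bound below the lower bound of 3.11 for Birc3. The difference between Birc2 and Birc3 was not tested itself. On the other side of Birc3, Yap1 had a log2 fold change of 0.00 (SE 0.07, edgeR adjusted p = 0.996).

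The 250 bases before the starts of Birc3 and Birc2 are shown because these adjacent genes had separate intervals. That of Birc3 (chr9:7873230-7873479) has a GC content of 38.8% and that of Birc2 (chr9:7837059-7837308) one of 68.4%. Both are read 5′ to 3′ on the minus strand of GRCm39, and neither holds the κB consensus.
Birc3: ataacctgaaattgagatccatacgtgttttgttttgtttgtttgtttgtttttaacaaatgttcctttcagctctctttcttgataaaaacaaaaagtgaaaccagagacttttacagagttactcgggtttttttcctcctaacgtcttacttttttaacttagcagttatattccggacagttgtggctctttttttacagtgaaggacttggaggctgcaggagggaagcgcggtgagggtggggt
Birc2: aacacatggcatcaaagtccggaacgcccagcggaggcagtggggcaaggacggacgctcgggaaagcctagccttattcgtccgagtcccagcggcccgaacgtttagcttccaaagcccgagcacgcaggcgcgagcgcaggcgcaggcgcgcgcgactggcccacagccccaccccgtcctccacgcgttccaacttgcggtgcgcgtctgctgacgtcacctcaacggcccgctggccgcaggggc

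Traf1 was the other transcript that started near the limit of detection. TRAF1 lacks the RING domain of its relatives and joins TRAF2 and the cIAPs in receptor complexes. Traf1 (ENSMUSG00000026875, chr2:34831762-34851837, minus strand) had 5 and 7 raw counts in control and 39 and 52 after EDA-A2. In normalised counts these were 5.15 and 7.06 against 38.2 and 51.1, with means of 6.11 ± 1.35 and 44.7 ± 9.11 (SD, n = 2). The treated libraries differed from each other by more than the control libraries did, and every treated value lay above every control value. This gave a log2 fold change of 2.84 (SE 0.42, interval 1.95 to 3.73, edgeR adjusted p = 0.000806). The ratio of 91 to 12 counts, scaled for depth, was 7.30, with an exact 95% Clopper-Pearson interval of 3.98 to 14.7. Without the filter on low counts, the edgeR adjusted p of Traf1 was 0.0532, whereas the other 4 were still called. It was 0.288 without control replicate 1 and 0.191 without control replicate 2, and DESeq2 without control replicate 1 gave an adjusted p of 0.0687. Exons of the antisense lncRNA Gm74856 overlap those of Traf1 over 349 bases.

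Traf1 and Birc3 are both known to be expressed in immune cells. Of the 7 macrophage markers, Ptprc, Adgre1 and Lyz2 had at most 3 counts in every library, and Csf1r had 3 and 1 in control and 8 and 3 after EDA-A2. Cd14 had 11 and 17 counts in control and 30 and 26 after EDA-A2 (log2 fold change 0.94, edgeR adjusted p = 0.229). Cd68 had 54 and 63 against 81 and 69 counts, and Mrc1 had 211 and 168 against 288 and 203 counts, so both were at least as abundant in raw counts as Traf1 and Birc3. The 7 markers together summed to 9.81 and 8.65 CPM in control and 13.5 and 10.1 CPM after EDA-A2, with none called of the 3 tested. Both EDA-A2 values of this list thus lay above both control values. The part of macrophage RNA in the values of Traf1 and Birc3 was not tested.

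The remaining adaptors did not pass the test. Traf6 (ENSMUSG00000027164, chr2:101508519-101533545, plus strand), a ubiquitin ligase known for signals from interleukin-1 and Toll-like receptors, had 1240 and 1159 normalised counts in control and 1339 and 1304 after EDA-A2. Its log2 fold change was 0.14 (SE 0.08, interval -0.03 to 0.31, edgeR adjusted p = 0.443), and the libraries of the groups did not overlap. Traf4 (ENSMUSG00000017386, chr11:78048186-78056417, minus strand), an adaptor that also acts outside TNF receptor signalling, had 2503 and 3117 normalised counts in control and 3269 and 3402 after EDA-A2. The control libraries of Traf4 were further apart (2810 ± 434, SD, n = 2) than the treated libraries (3336 ± 94.4). For Traf4 the log2 fold change was 0.25 (SE 0.09, interval 0.06 to 0.44, edgeR adjusted p = 0.158). It lay between 0.10 and 0.42 with 1 library left out, and DESeq2 called it (adjusted p = 0.00447) only without control replicate 2.

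Traf5 and Traf7 did not lie higher after EDA-A2. Traf5 (ENSMUSG00000026637, chr1:191725516-191776911, minus strand), a close relative of TRAF2 in function, had 141 and 175 normalised counts in control and 152 and 164 after EDA-A2. The treated values lay inside the range of the control values, with means of 158 ± 24.3 and 158 ± 8.62 (SD, n = 2). Traf5 had a log2 fold change of -0.00 (SE 0.17, edgeR adjusted p = 0.995), and its interval, from -0.36 to 0.35, leaves room for changes in either direction. Traf7 (ENSMUSG00000052752, chr17:24726687-24746949, minus strand), which carries WD40 repeats in place of the TRAF domain, had 3387 and 3294 normalised counts in control and 3156 and 3069 after EDA-A2. It was the only member with both treated libraries below both controls, as were 22.2% of all genes tested, and its log2 fold change of -0.10 (SE 0.07, interval -0.24 to 0.04) did not pass the test (edgeR adjusted p = 0.536). Exons of Traf5 overlap those of the antisense Gm26879 over 270 bases, and those of Traf7 overlap Caskin1 on the opposite strand over 1193 bases and Rab26 on the same strand over 507 bases. These neighbours had 2, 21 and 7 counts in all 4 libraries together.

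**Figure D3:**
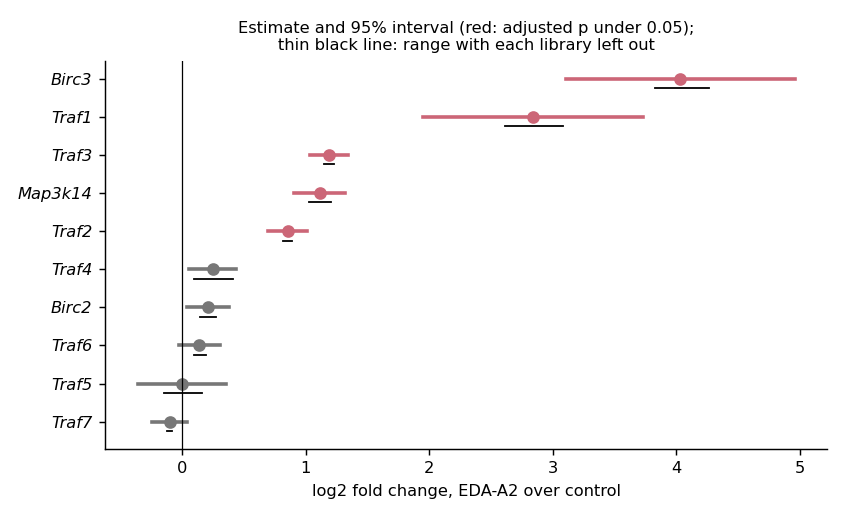
Log2 fold change of each gene, EDA-A2 over control (x axis), with the 95% interval of the edgeR fit (thick line, red where the adjusted p is under 0.05) and, under it, the range of estimates with each library left out (thin black line). The intervals of Birc3, Traf1, Traf3, Map3k14 and Traf2 start at 0.70 or higher, and those of Traf5, Traf6 and Traf7 include 0.

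Levels of different genes were compared per length, as RPKM (read pairs scaled by the length of merged exons and by library size). In control myotubes Traf4 (17.7 ± 2.73 RPKM, SD, n = 2) and Traf7 (14.4 ± 0.282 RPKM) were highest, followed by Birc2 (5.85 ± 0.373), Traf2 (5.18 ± 0.000502), Traf3 (5.10 ± 0.131), Traf6 (3.91 ± 0.189) and Map3k14 (2.05 ± 0.181). Traf5 stood at 0.474 ± 0.0726 RPKM, Traf1 at 0.0232 ± 0.00513 and Birc3 at 0.0139 ± 0.00302. Neighbours in this order did not overlap between libraries, except Traf2 and Traf3, and the order of Traf1 and Birc3 rests on 12 and 7 counts. The length of the longest transcript, used in place of merged exons, placed Traf7 (26.9 RPKM) above Traf4 (22.0) and Traf2 (8.41) above Birc2 (7.45). By that length Traf3 stood at 5.64 RPKM, below both Traf2 and Birc2.

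After EDA-A2, Traf3 (11.6 ± 0.481 RPKM) and Traf2 (9.37 ± 0.335) stood above Birc2 (6.76 ± 0.149), and Map3k14 (4.43 ± 0.0124) stood above Traf6 (4.31 ± 0.0802). Traf4 (21.0 ± 0.594) and Traf7 (13.4 ± 0.266) remained the highest, and Birc3 (0.235 ± 0.0401) and Traf1 (0.170 ± 0.0347) the lowest after Traf5 (0.473 ± 0.0258). Despite their large fold changes, Birc3 and Traf1 thus stayed below the level of Traf5 in every library.

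**Figure D4:**
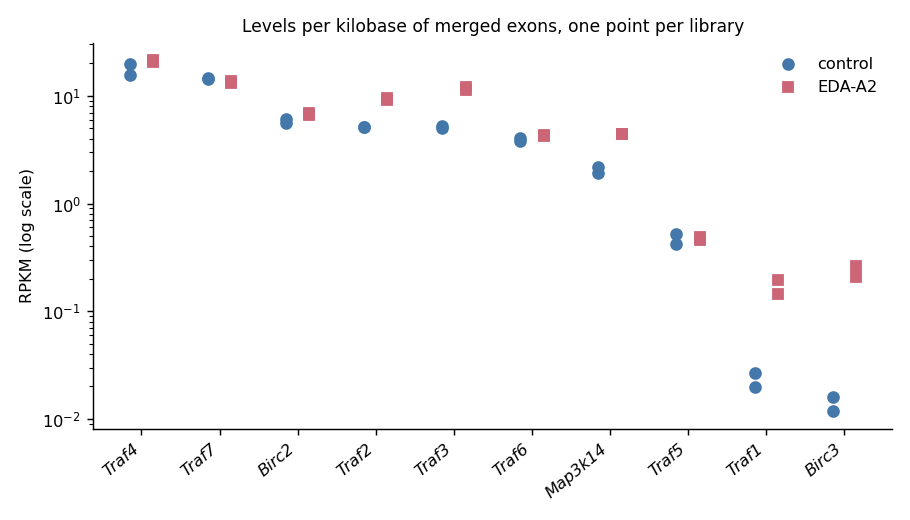
Levels per length (RPKM, log scale, y axis) of the 10 genes, ordered by their control mean, with 1 point per library (blue circles control, red squares EDA-A2). Traf1 and Birc3 lie lowest in all 4 libraries, and Traf2, Traf3 and Map3k14 are higher after EDA-A2 with no overlap between the groups.

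The make-up of the family shifted with these changes. The summed level of the 7 TRAF transcripts was 45.0 and 48.5 RPKM in control and 59.6 and 61.2 RPKM after EDA-A2. Traf3 made up 11.1% and 10.7% of that sum in control and 19.0% and 19.6% after EDA-A2, and Traf2 made up 11.5% and 10.7% against 15.3% and 15.7%. The level of Traf2 relative to Traf3 was 1.03 and 0.997 in control and 0.809 and 0.802 after EDA-A2. All shares and ratios given here use merged exons, and their size depends on the length used. By the longest transcript, Traf2 (8.41 RPKM) stood above Traf3 (5.64 RPKM) in control. Birc3 made up 0.262% and 0.210% of the summed cIAP level in control and 3.69% and 3.01% after EDA-A2, so Birc2 supplied nearly all cIAP transcripts in both groups. The level of Map3k14 relative to Traf3, the kinase against the adaptor that restrains it, was 0.434 and 0.369 in control and 0.393 and 0.369 after EDA-A2, and the groups overlapped. With 2 libraries a group, the exact two-sided permutation test of any of these shares cannot go below p = 0.333.

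The genes around the members were examined for changes shared along the chromosome. Of the 18 nearest tested genes that are not members, edgeR called 0 at an adjusted p under 0.05, 4 had an unadjusted p under 0.05 and DESeq2 called 0. Their log2 fold changes ranged from -0.59 to 0.41 with a median of 0.00, and the smallest edgeR adjusted p was 0.177. For comparison, 2372 of all 15173 genes tested had an unadjusted p under 0.05 in edgeR.

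The other genes of the pathway were taken from lists of textbook members, 117 genes of which 102 were tested. Among them 11 were called, 10 higher and 1 lower, against 4.57% called over all genes tested (2.45% higher). These lists were chosen with earlier results of these data known, so the comparison is a description only. The median log2 fold change of the 102 genes was 0.06, and the lists with 1 call in 15, 16 or 24 genes were close to that background. At the receptor end, Eda2r, the receptor of EDA-A2, was present at 7354 ± 468 normalised counts in control and 9342 ± 861 after EDA-A2 (SD, n = 2). Its log2 fold change was 0.35 (SE 0.08, edgeR adjusted p = 0.0178), and it lay between 0.25 and 0.44 with 1 library left out. The call of Eda2r was lost without EDA-A2 replicate 2. It was also lost without either control library, where every gene lost its call. Eda, the endogenous gene of the ligand, stood at 200 ± 38.8 and 172 ± 8.65 normalised counts (log2 fold change -0.22, edgeR adjusted p = 0.591). Edar, the receptor of the other ectodysplasin isoform, had 0 counts in all 4 libraries. Of the TNF receptor superfamily members that recruit TRAFs, 15 of 20 were tested and 1 was called. That was Tnfrsf12a, the receptor of TWEAK, which fell from 1423 ± 220 to 1085 ± 7.57 normalised counts (log2 fold change -0.39, edgeR adjusted p = 0.0306). With 1 library left out, the log2 fold change of Tnfrsf12a lay between -0.54 and -0.22, and its call was lost each time.

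NFκB subunits and inhibitors held the most called genes, 4 of 10 tested, and all 4 were higher. Over the list the log2 fold change had a median of 0.30. Nfkb2, which encodes the p100 precursor that NIK signalling processes, had 1008 and 1005 normalised counts in control and 3660 and 3808 after EDA-A2. Its log2 fold change was 1.89 (SE 0.07, edgeR adjusted p = 9.46e-10). Relb, the partner of p52, rose by 0.99 on the log2 scale (SE 0.10, edgeR adjusted p = 3.10e-05). The inhibitors Nfkbie and Nfkbia, which hold NFκB in the cytoplasm, had log2 fold changes of 3.15 (SE 0.11, edgeR adjusted p = 6.24e-10) and 1.43 (SE 0.07, edgeR adjusted p = 1.51e-08). The rise of Traf3 (1.19) and Map3k14 (1.11) thus lay between those of Relb and Nfkbia. Without control replicate 1 or 2, the smallest edgeR adjusted p in this list was 0.115 or 0.0844.

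The enzymes that edit ubiquitin on TRAFs, cIAPs and NIK gave 3 calls in 17 genes tested, all higher. Tnfaip3, which encodes the ubiquitin-editing enzyme A20, rose from 2112 ± 207 to 4265 ± 25.3 normalised counts (SD, n = 2), a log2 fold change of 1.01 (SE 0.08, edgeR adjusted p = 1.46e-06). Tnip1, which encodes a binding partner of A20, rose by 1.10 on the log2 scale (SE 0.07, edgeR adjusted p = 3.21e-07). Cyld, a deubiquitinase that acts on TRAF2 and TRAF6, had a log2 fold change of 0.34 (SE 0.07, edgeR adjusted p = 0.00972), which was not called without EDA-A2 replicate 2 (edgeR adjusted p = 0.162). Without control replicate 1 or 2 the adjusted p was 0.142 or 0.157 for Tnfaip3, 0.185 or 0.157 for Tnip1 and 0.301 or 0.195 for Cyld.

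Partners of the TRAFs and the kinases downstream gave 1 call per list. Of 24 TRAF partners and regulators, all tested, 1 was called. That was Tank, an adaptor that binds TRAFs, with a log2 fold change of 0.35 (SE 0.08, edgeR adjusted p = 0.0150). Its call was lost with any 1 of the 4 libraries left out, and without either control library every gene lost its call. With 1 library left out, its log2 fold change lay between 0.31 and 0.39. Of 16 stress kinases downstream of TRAF2, 1 was called, Tnik, which encodes a kinase that binds TRAF2, with a log2 fold change of 0.51 (SE 0.09, edgeR adjusted p = 0.00493). The log2 fold change of Tnik lay between 0.37 and 0.66 with 1 library left out, and its call was lost without either control library.

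No gene of the 3 other lists was called by edgeR. Over the whole data, 2372 of 15173 genes tested had an unadjusted p under 0.05 in edgeR. In the IKK and TAK1 complexes, 0 of 7 were called, 2 had an unadjusted p under 0.05 and DESeq2 called 0. The smallest p was that of Map3k7, which encodes TAK1, with 3339 ± 60.1 and 3877 ± 208 normalised counts (log2 fold change 0.22, interval 0.07 to 0.36, edgeR adjusted p = 0.105). Of the other inhibitor of apoptosis proteins and their antagonists, 0 of 6 tested were called, 1 had an unadjusted p under 0.05 and DESeq2 called 0. That gene was Xaf1, an antagonist of XIAP (log2 fold change -0.36, interval -0.59 to -0.13, edgeR adjusted p = 0.0817). Of the proteins outside the family that share the TRAF (MATH) domain, 0 of 5 tested were called, 1 had an unadjusted p under 0.05, Spopl (log2 fold change 0.28, edgeR adjusted p = 0.0511), and DESeq2 called 0.

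**Figure D5:**
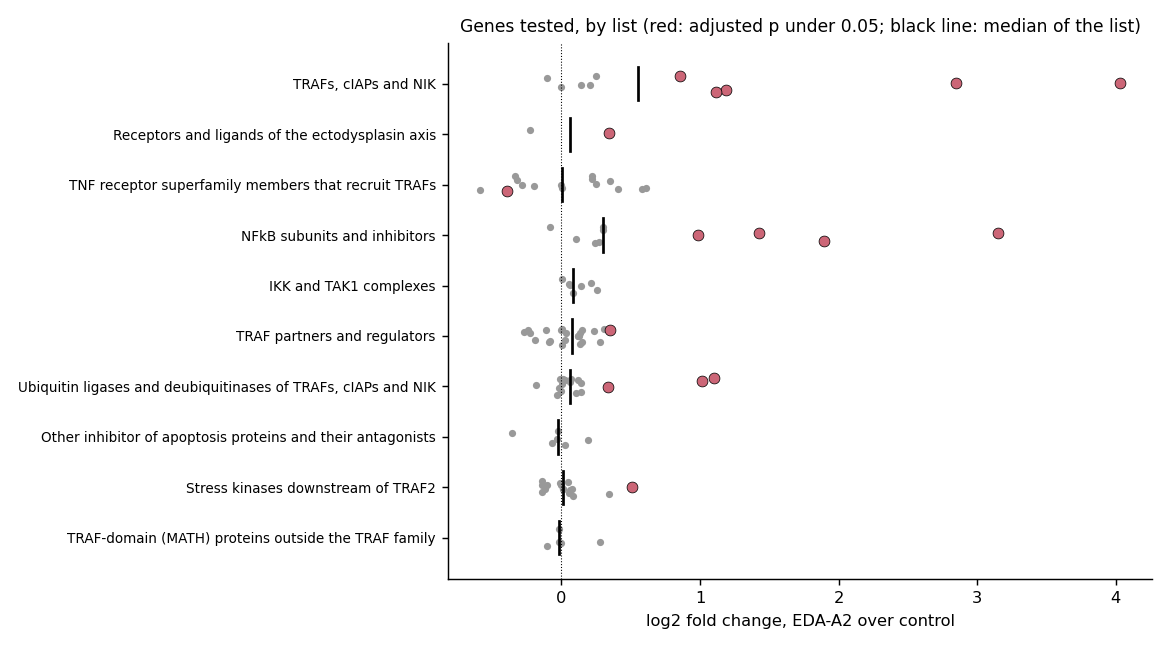
Log2 fold change, EDA-A2 over control (x axis), of each tested gene in the member list (10 genes) and the 9 pathway lists (102 genes), 1 point per gene, red where the edgeR adjusted p is under 0.05, with the median of each list as a black line. The lists of TRAFs, cIAPs and NIK and of NFκB subunits and inhibitors, with 10 tested genes each, hold 9 of the 16 called genes. Traf1 and Birc3, 2 of these 9, passed the filter through their EDA-A2 libraries alone. The lists of IKK and TAK1, of other inhibitor of apoptosis proteins and of MATH proteins hold 0. Of all genes tested, 4.57% were called, and the lists were chosen with earlier results of these data known.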

How the data were processed

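Bulk RNA of 2 control and 2 EDA-A2 libraries of primary myotubes was measured. Per the labels' processing notes, the authors used FastQC 0.11.9, MultiQC 1.12, Trim Galore 0.6.5, STAR 2.7.3a, HTSeq 0.11.1 and GRCm39. The annotation release and the strand option are not given in the sources used here. The authors deposited raw counts of read pairs per Ensembl gene, 1 table per library. HTSeq's summary lines were left out. Pairs outside genes made up 6.68%, 6.68%, 7.40% and 6.84% of control replicates 1 and 2 and EDA-A2 replicates 1 and 2.

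Counts were tested with edgeR 4.0.16 in R 4.3.3 (TMM factors, filterByExpr with a minimum count of 10 and total of 15, glmQLFit and glmQLFTest, Benjamini-Hochberg adjustment over 15173 genes, threshold 0.05). Of these, 694 were called, 371 higher and 323 lower. With total counts in place of TMM, 485 were higher and 194 lower. Normalised counts use the TMM library sizes. RPKM uses exons merged per gene in GENCODE M39. The SE was taken from the fold change and its F statistic. Of the 53647 genes, 52610 matched that annotation. Libraries of a group differed by more than sampling noise (chi-square per gene 10.1 for control and 4.74 for EDA-A2), so none was a duplicate. Intervals of count ratios and limits for a count of 0 cover counting error only.

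The members and lists were chosen with earlier results of these data known. All members are named with their values, as are Eda and Eda2r and, per pathway list, up to 5 called genes with the smallest adjusted p, or the gene with the smallest p where none was called. Yap1, Edar, the overlapping genes and the single markers were named after their values were seen. The results were recomputed with DESeq2 size factors or total counts, without a filter or with 10 or more counts required in every library, with DESeq2 1.42.0 (Wald test), with the replicate number as a block, and without each library in turn. DESeq2 without each library was added after the data were seen.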

Additional observations from a re-analysis of the deposited data

How the results depend on the processing

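The number of genes called was 694, and 86 without a filter and 1066 with the replicate block. With 1 library left out it ran from 0 (either control library) to 402, and with DESeq2, a choice made after seeing the data, it was 113 and 124 without EDA-A2 replicate 1 and 2 and 326 and 509 without control replicate 1 and 2. Of the 10 members, 5 were called, 3 with at least 10 counts in every library, a filter that removes Traf1 and Birc3, and 4 without a filter. The count ran from 0 to 5 with 1 library left out and from 3 to 6 with DESeq2, where NA values left Traf1 without an adjusted p without either EDA-A2 library, and Birc3 without EDA-A2 replicate 1. Pathway genes called were 11, 6 without a filter, 0 to 9 with 1 library left out and 6 to 10 with DESeq2. The lone library of a group was assumed to vary like the others. The cause of these losses was not tested.

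Every log2 fold change of the members other than Traf5 kept its sign under all alternatives run. That of Traf5 (-0.0033) was 0.050 with total counts and 0.0011 with the replicate block. With 1 library left out it ran from -0.15 to 0.16 (0.052 without EDA-A2 replicate 1), and DESeq2 gave 0.052 without EDA-A2 replicate 1 and 0.16 without control replicate 2. It passed the test in none. Total counts moved the median of all genes by 0.05. The summed level of the members was 63.3 RPKM, and 90.6 RPKM with the length of the longest transcript.

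Libraries with the same replicate number did not deviate together (correlation 0.06), so the numbers do not pair them. The replicate block added Traf4 (adjusted p = 0.0278 in edgeR) to the 5 members called and gave 15 pathway genes. Depth limits Traf1 and Birc3, which had 3 to 7 counts in each control library.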
